A study of Mus musculus with 30 samples.

Results

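Mouse lung stroma taken from beside tumours of the human circulating tumour cell line Brx50 was compared with lung stroma of tumour-free mice. The 5 libraries are all those that the labels assign to lung exposed to Brx50 (3 libraries) or to lung control (2 libraries), out of 30 libraries of bone, brain and lung stroma in the series. Brx50 is 1 of 4 breast cancer lines in the study grown from circulating tumour cells (CTCs), the cells that a tumour sheds into blood. For the exposed group, 100000 CTCs carrying GFP and luciferase, in 100 µl, were injected into the left ventricle of the heart of female NSG mice aged 6 to 8 weeks that had subcutaneous slow-release estrogen pellets. Lesions were dissociated, cells without GFP were sorted as stroma, and RNA was taken from 50000 sorted cells per library. The control group is described as stromal cells of mice without tumours. The sources used here do not say whether the control mice had pellets, nor their age. NSG mice carry no functional T, B or natural killer cells, so the stroma sampled holds endothelium, fibroblasts, epithelium and myeloid cells but almost no lymphocytes. Because the labels do not say whether replicates are different mice, p-values measure only the spread between these libraries. The Brx50 libraries carry codes in their names and are numbered here in accession order: replicate 1 has code 84.2, replicate 2 code 48.1 and replicate 3 code 83.2. What the codes mean is not stated. Codes 83.2 and 48.1 also appear on brain libraries beside Brx50, and 83.2 and 84.2 on bone libraries.

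Lung is a vascular organ in which capillary endothelium faces thin alveolar type 1 cells across the gas exchange surface, while type 2 cells secrete surfactant and alveolar macrophages clear it. Tumours that grow in lung draw in neutrophils, monocytes and dendritic cells. In tissue with little oxygen, hypoxia-inducible factors switch on glycolytic enzymes and glucose transporters. Interferons switch on antiviral genes and the class I antigen presentation machinery through dedicated transcription factors. Cells that are negative for the tumour's label include every host cell type at the site, so such a library reports both which cells were present and what each expressed. In bulk RNA, fewer cells of a type and less RNA per cell cannot be told apart.

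The 5 libraries held between 10751803 and 14170063 counts in genes, with 21474 to 22894 genes detected. Values are given as CPM, the counts of a gene scaled to a fixed library total, always in the order Brx50 replicates 1, 2 and 3, then controls 1 and 2. Lung markers were present in all 5. Sftpc, a surfactant protein of type 2 cells, was at 1385, 959.8, 343, 1044 and 1606 CPM, against at most 3.73 CPM in any bone or brain library of the series. The lymphocyte list summed to 9.64, 12.1, 10.6, 14.8 and 18.4 CPM, low in every library of these immunodeficient hosts. Summed levels of 14 genes of epithelium and breast tumour were 574, 494, 411, 419 and 391 CPM. Brx50 replicate 3 stood apart. Across 16206 genes, Pearson's r of log2(CPM + 1) was 0.976 to 0.991 among the other 4 libraries and 0.817 to 0.852 between replicate 3 and each of them. These are correlations across genes within pairs of libraries, and genes are not independent replicates. The median log2 ratio to the control mean over all genes tested was 0.01 in replicate 1, -0.03 in replicate 2 and -0.21 in replicate 3. Replicate 3 had 432 genes more than 4-fold above the control mean (2.67% of the 16206) and 1456 more than 4-fold below it (8.98%), on the log2(CPM + 1) scale. Replicate 1 had 2 and 37 such genes, and replicate 2 had 8 and 2. For Brx50 against control, counts of calls are therefore given with and without it, as are the fitted medians of the gene lists described for replicate 3. For the comparisons with other lines and with brain, DESeq2 and limma-voom were run only with it.

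**Figure D1:**
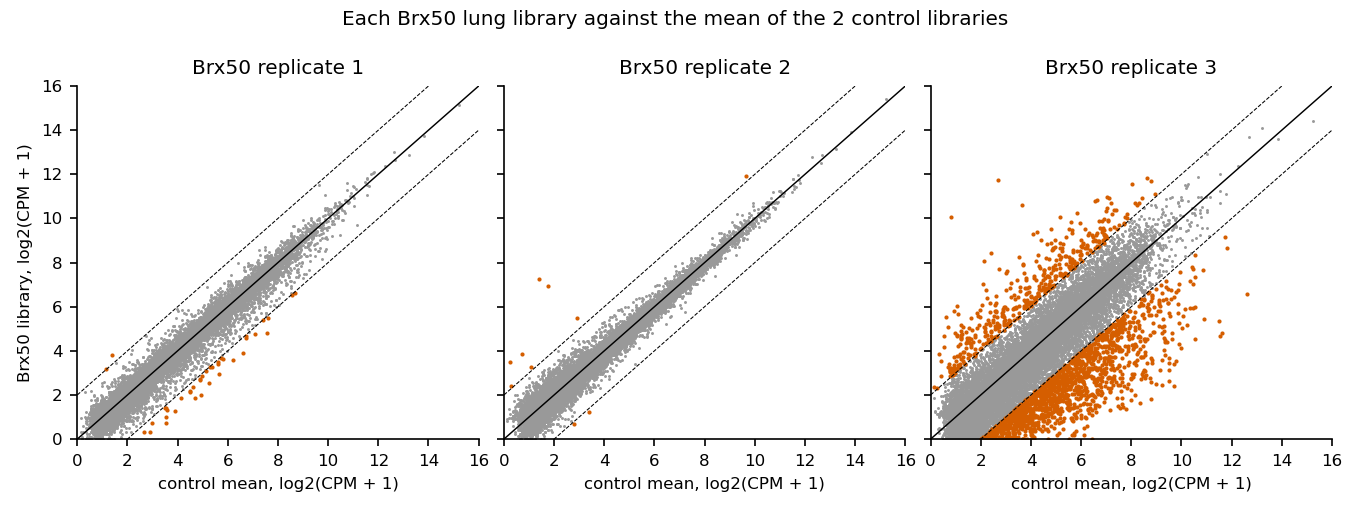
Each of the 3 Brx50 lung libraries (vertical axis) against the mean of the 2 control libraries (horizontal axis), both as log2(CPM + 1), 1 point per gene tested. Points of replicates 1 and 2 lie along the diagonal, while in replicate 3 a total of 432 genes lie more than 4-fold above it and 1456 more than 4-fold below it.

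The first question was which genes differ in lung stroma when a Brx50 tumour is present. With all 3 Brx50 libraries, no gene of 16206 passed an adjusted p of 0.05 in edgeR's quasi-likelihood test (0% called), and the smallest adjusted p was 0.997. At an unadjusted p of 0.05 there were 117 genes (0.722%), against 929 (5.83%) in edgeR without replicate 3. The 0 calls do not show that no gene differs. DESeq2 called 3 genes (0.0185%), and limma-voom with quality weights called 0, with 1129 genes at an unadjusted p under 0.05. That limma-voom fit gave replicate 3 a weight of 0.0713, against 0.866 to 2.71 for the other libraries. The 3 genes called by DESeq2 were Ltf, Il12rb1 and Gm23935. Among the genes tested, 1121 were higher in all 3 Brx50 libraries than in both controls (6.92%) and 1656 were lower in all 3 (10.2%). The biological coefficient of variation estimated by edgeR was 0.116 between the controls, 0.241 between Brx50 replicates 1 and 2, and 0.6004 over the 3 Brx50 libraries.

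Ltf (ENSMUSG00000032496, chr9:111019271-111042767 of GRCm38) encodes lactoferrin, an iron-binding protein of neutrophil granules and of glandular secretions. Its level was 44.5, 37.5 and 48.6 CPM beside the tumours and 14.3 and 14.3 CPM without them. All 3 Brx50 values lay above both controls, at a mean of 43.5 ± 5.58 CPM (SD, n = 3), and replicate 3 was close to the other pair. The log2 fold change was 1.69 (SE 0.27), with an adjusted p of 0.997 in edgeR and of 0.0189 in DESeq2. Camp, a cathelicidin of the same granules, was at 12.9, 6.36, 2.19, 1.70 and 1.49 CPM, also above both controls in each Brx50 library but with replicate 3 near the controls (log2 fold change 2.17, SE 0.78, edgeR adjusted p 0.997). Without replicate 3, DESeq2 called Camp higher (2.59 on the log2 scale, adjusted p 0.00105). Ngp, another granule gene, was at 50.9, 31.8, 15.2, 22.1 and 14.1 CPM, with replicate 3 between the controls. The neutrophil list as a whole was mixed, with median log2 ratios of -0.93, 0.66 and 1.34 in replicates 1, 2 and 3. Of its 14 tested genes, 3 were above both controls in all 3 Brx50 libraries, against 6.92% of all genes tested. In replicates 1 and 2, 4 were above both controls and 2 below both, against 17% and 19.6% of all genes tested. Lcn2, described below, was under both controls in replicates 1 and 2.

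Il12rb1 (ENSMUSG00000000791, chr8:70808449-70821424) encodes a receptor chain shared by interleukin 12 and interleukin 23. It was at 0.838, 0.522 and 0.353 CPM beside Brx50 tumours and at 4.48 and 4.00 CPM in the controls, so that all 3 exposed values were low and the groups did not overlap. The log2 fold change was -2.83 (SE 0.45), with an adjusted p of 0.0198 in DESeq2 and of 0.997 in edgeR. A level of 3 counts corresponds to 0.212 to 0.279 CPM in these libraries, so the exposed values rest on few counts. Gm23935, annotated as a microRNA gene, was at 2969, 3823, 2022, 604 and 977 CPM, again without overlap between the groups (DESeq2 adjusted p 0.0282, edgeR adjusted p 0.997). Il12rb1 and Gm23935 lie outside the rule for named genes and were picked because DESeq2 called them.

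Beyond these, 12 higher and 12 lower genes of smallest p, among those without overlap and at 10 CPM or more, are given as values and not as calls, since each had an edgeR adjusted p of 0.997. Il10 (chr1:131019845-131024974), an anti-inflammatory cytokine of macrophages, was at 6.87, 7.40 and 5.86 CPM beside the tumours and at 13.7 and 19.1 CPM without them. The 3 exposed libraries lay within a narrow range below both controls (log2 fold change -1.22, SE 0.27). Mgl2, a lectin of macrophages and dendritic cells, was lower in the same way, at 4.78, 7.31, 6.07, 16.2 and 11.3 CPM. Trem2, a lipid-sensing receptor of macrophages, stood at 30.6, 29.4, 30.3, 22.0 and 16.5 CPM. Kynu, an enzyme that breaks down kynurenine, was at 15.7, 11.2, 16.1, 8.69 and 6.05 CPM. Both were higher in every exposed library, by log2 fold changes of 0.72 (SE 0.25) and 1.04 (SE 0.36).

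Fkbp5, a co-chaperone induced by glucocorticoids, was at 8.04, 15.5 and 8.47 CPM beside the tumours and at 26.2 and 31.7 CPM in the controls. Dnaja1, a heat shock co-chaperone, was at 110.0, 98.6, 59.99, 149 and 172 CPM. Aspn, a small proteoglycan of fibroblast matrix, was at 5.11, 6.79, 1.69, 14.6 and 11.7 CPM. All 3 were lower in each exposed library, with log2 fold changes of -1.37 (SE 0.36), -0.79 (SE 0.28) and -1.51 (SE 0.56). Serpinb2, a serpin that inhibits plasminogen activators, was at 19.4, 16.02, 9.88, 5.64 and 6.51 CPM, and Aifm2, an oxidoreductase that protects membranes from lipid peroxidation, at 40.2, 29.4, 41.9, 20.8 and 20.4 CPM. Both were higher in each exposed library (log2 fold changes 1.36, SE 0.33, and 0.94, SE 0.29). Slc5a3, a transporter of myo-inositol, was at 65.3, 46.6, 34.2, 102 and 98.0 CPM, below both controls in every Brx50 library.

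**Figure D2:**
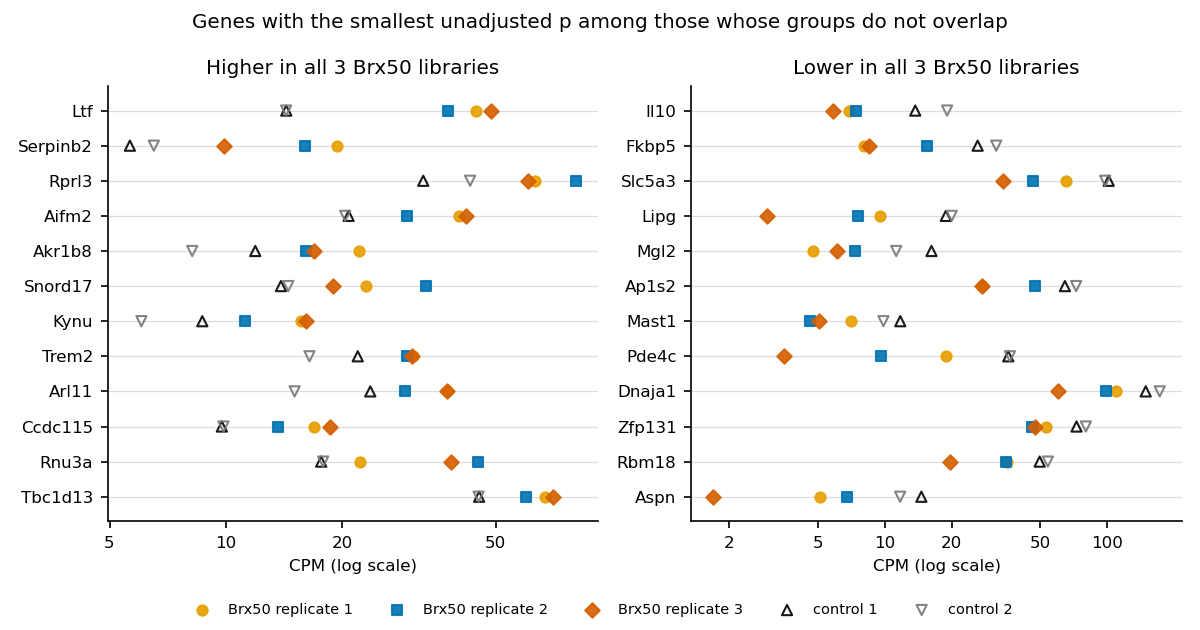
Levels in CPM (log axis) of the 12 genes per direction with the smallest unadjusted p among genes whose groups do not overlap, 1 marker per library, with filled markers for Brx50 and open ones for controls. Every Brx50 marker lies to one side of both control markers, as the choice of genes fixes, and none of the 24 genes passed the edgeR threshold.

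Replicate 3 was then described alone. With 1 library there is no test, so folds are given against the mean of the controls, and a gene past 4-fold is counted as a description. Genes of blood vessels were much lower in this library. All 15 tested genes of the pan-endothelial list were more than 4-fold below the control mean, against 8.98% of all genes tested, and so were all 15 of the lung capillary list. The summed pan-endothelial level was 10577 and 8268 CPM in replicates 1 and 2, 311 CPM in replicate 3, and 8328 and 10035 CPM in the controls. Replicate 3 was 29.5-fold below the control mean of that sum, while the other exposed libraries lay within or just outside the control range. Cdh5 (chr8:104101625-104144511), the cadherin of endothelial junctions, was at 2259, 1727, 42.7, 1806 and 2049 CPM. Pecam1, an adhesion molecule of endothelium and platelets, was at 1395, 1145, 59.8, 1189 and 1395 CPM. In both, replicate 3 was the only low library. Sema3g (chr14:31217860-31230352), a semaphorin of endothelium, was at 468, 419, 2.54, 403 and 480.3 CPM, 174-fold below the control mean in replicate 3. Ptprb, the vascular endothelial tyrosine phosphatase, was at 2915, 2562, 24.4, 2624 and 3390.5 CPM, and Ace, angiotensin-converting enzyme, at 2846, 2722, 26.9, 2979 and 3327 CPM. Car4, a carbonic anhydrase of lung capillaries, was at 290.5, 209, 1.76, 185 and 225 CPM. Of the 14 genes of large vessels and lymphatics, 10 were more than 4-fold lower in replicate 3. Endothelial genes did not differ in this way without replicate 3: the fitted median log2 fold change of the pan-endothelial list was -0.52 with it and 0.03 without it (capillary list -0.54 and 0.03, large vessels -0.48 and 0.00), beside 0.04 and 0.01 over all genes tested.

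Alveolar macrophage genes were lower as well. Of 13 members, 12 were more than 4-fold below the control mean, and the sum was 5415, 3436, 199, 3498 and 1832 CPM. Mrc1, the mannose receptor, was at 714, 485, 5.01, 556 and 321 CPM, 87.4-fold below the control mean in replicate 3. Marco, a scavenger receptor, was at 227, 227, 3.25, 160 and 63.8 CPM. Krt79 was at 250.02 and 155 CPM in replicates 1 and 2, at 0 in replicate 3 and at 119 and 49.7 CPM in the controls. A count of 0 allows up to 0.212 CPM in that library. The 3 complement C1q chains, which tissue macrophages make, were also low. C1qa was at 36.9, 56.4, 0.917, 72.2 and 73.9 CPM, and C1qb at 25.6, 31.8, 0.282, 52.5 and 55.9 CPM. The list of monocytes and interstitial macrophages, which includes these chains, was mixed, with 4 of 16 members more than 4-fold lower in replicate 3 and 3 more than 4-fold higher. Lyz2, the lysozyme of myeloid and type 2 cells, was at 4076, 3947, 565, 4008 and 2729 CPM. Csf1r, the receptor for macrophage colony-stimulating factor, was at 315, 774, 964, 717 and 715 CPM, and Cd14, the lipopolysaccharide co-receptor, at 826, 2295, 1992, 2398 and 2141 CPM. Fcgr1, a high-affinity Fc receptor, was at 36.0, 36.9, 315, 44.9 and 37.4 CPM, highest in replicate 3. Fitted medians were 0.21 for the alveolar macrophage list and -0.01 for monocytes and interstitial macrophages, and 0.79 and -0.37 without replicate 3.

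Fibroblast genes followed endothelium. Of 17 members 14 were more than 4-fold lower in replicate 3, and the sum was 2625, 2574, 364, 2709 and 3406 CPM. Col3a1, a fibrillar collagen chain, was at 467, 549, 46.2, 705 and 784 CPM. Col1a1, a chain of type I collagen, was at 306, 349, 68.7, 369 and 450.4 CPM. Replicate 3 was lowest for both, and replicates 1 and 2 were also below both controls. Smooth muscle and pericyte genes differed less, with a sum of 519, 524, 226, 460.4 and 617 CPM and 0 of 15 members past 4-fold. Acta2, smooth muscle actin, was at 95.3, 91.9, 41.3, 74.2 and 106 CPM. The fitted median log2 fold change was -0.74 for the fibroblast list and -0.35 for smooth muscle and pericytes, and -0.29 and -0.05 without replicate 3.

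Epithelial genes differed by type. The type 1 list summed to 2329.8, 1592, 148, 1653 and 1722 CPM, with 5 of 10 members more than 4-fold lower in replicate 3. Ager, a receptor that marks type 1 cells, was at 129, 92.5, 17.1, 76.4 and 89.9 CPM. The type 2 list summed to 2916, 2129.9, 942, 2288 and 3238 CPM, with 3 of 12 members past 4-fold. Airway secretory genes summed to 459, 620.4, 28.7, 763 and 685 CPM, and Scgb1a1, the club cell secretoglobin, was at 384, 462, 15.3, 678 and 573 CPM. Replicate 3 was the lowest library for each of these sums, by 11.4-fold for type 1, 2.93-fold for type 2 and 25.2-fold for airway secretory genes below the control mean. Without it, the fitted medians went from -0.19 to 0.28 for type 1, from -0.41 to -0.12 for type 2 and from -0.32 to 0.02 for airway secretory genes. Of the 16 tested immediate early genes, which tissue dissociation is known to induce, 6 were more than 4-fold lower. Fos was at 1608, 1727, 208, 1408 and 1423 CPM and Fosb at 1721, 1678, 129, 1359 and 1417 CPM, and the list's fitted median was -0.18 with replicate 3 and 0.19 without it. Transcripts of the mitochondrial genome made up 0.352%, 0.416%, 0.155%, 0.430% and 0.451% of counts, lowest in replicate 3, while the ribosomal protein list had a median log2 ratio of -0.02 there. The part of these library-wide differences in the results for replicate 3 was not tested.

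**Figure D3:**
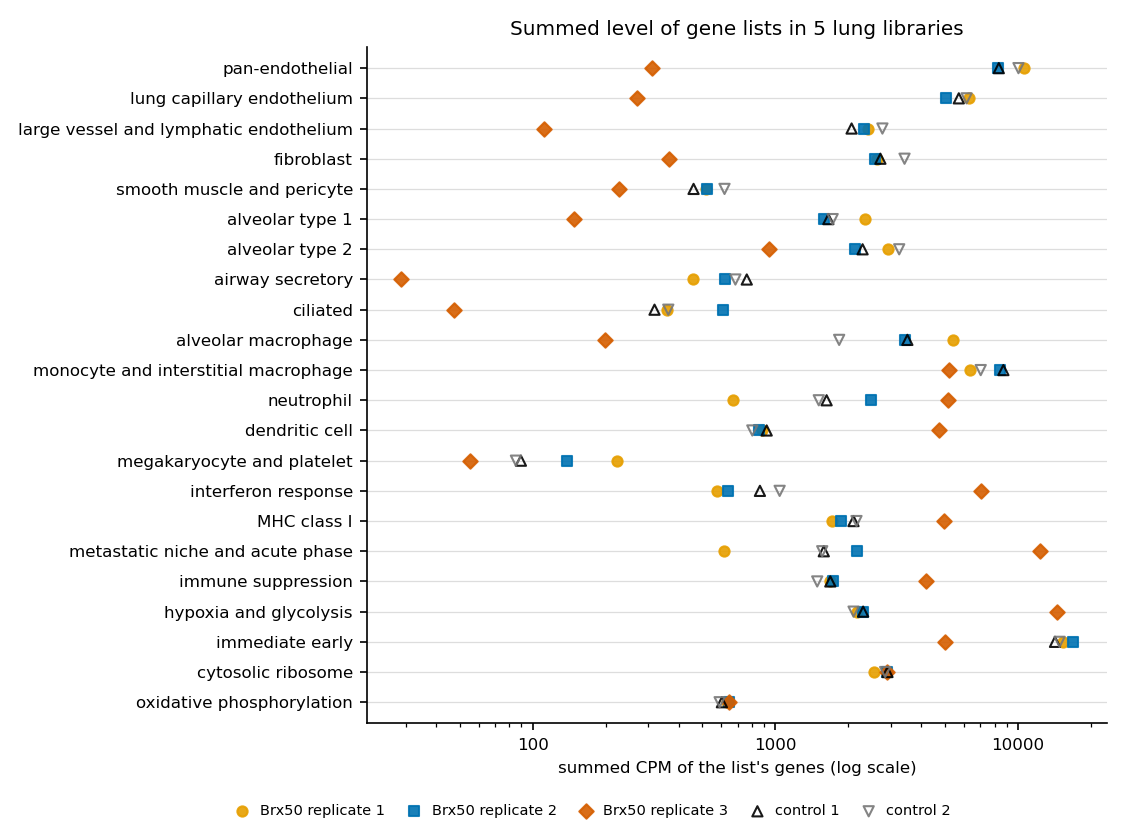
Summed CPM of each gene list (log axis) in the 5 lung libraries, 1 marker per library. Replicate 3 lies to the left of the other 4 for the endothelial, fibroblast, alveolar, airway and alveolar macrophage lists, and to the right for neutrophil, dendritic cell, interferon, and hypoxia and glycolysis lists.

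Genes that were high in replicate 3 belonged to several groups, some near control level in the other 2 Brx50 libraries and others not. Arg1 (chr10:24915221-24927484) encodes arginase 1, which breaks down arginine and marks suppressive myeloid cells. It was at 1.01 and 0.871 CPM in replicates 1 and 2, at 1085 CPM in replicate 3 and at 1.08 and 0.465 CPM in the controls. Replicate 3 was 1409-fold above the control mean, and the other 4 libraries were all near 1 CPM. Saa3 (chr7:46711998-46715700), an acute phase serum amyloid made at sites of inflammation, was at 8.21, 8.01, 3427, 6.54 and 4.19 CPM, a 639-fold difference for replicate 3. Nos2 (chr11:78920787-78960254), inducible nitric oxide synthase, was at 14.7, 14.9, 665, 16.3 and 19.8 CPM, or 36.8-fold. In each of these genes 1 library of 5 was high. The fitted log2 fold changes over all 3 Brx50 libraries were 9.08 (SE 4.34) for Arg1, 7.96 (SE 3.74) for Saa3 and 3.898 (SE 2.19) for Nos2, each with an edgeR adjusted p of 0.997. Without replicate 3 they were 0.28 (SE 0.59), 0.59 (SE 0.29) and -0.28 (SE 0.17), and none passed the threshold.

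The list of immune suppression genes had 5 of 12 members more than 4-fold higher in replicate 3, against 2.67% of all genes tested. Cd274, which encodes the checkpoint ligand PD-L1, was at 134, 165, 744, 156 and 126 CPM, and Pdcd1lg2, which encodes PD-L2, at 1.34, 6.09, 46.2, 4.84 and 4.84 CPM. Not all members of the list were high there. Il10 was at 5.86 CPM in replicate 3, below both controls, and Gpnmb, a glycoprotein of lipid-laden macrophages, was at 418, 298, 58.3, 222 and 130.4 CPM. The fitted list median was 0.66 with replicate 3 and -0.02 without it.

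Acute phase and niche genes had 5 of 11 tested members more than 4-fold higher in replicate 3, with a summed level of 616, 2161, 12277, 1583 and 1559.8 CPM. Lcn2, lipocalin 2, which binds bacterial siderophores, was at 47.8, 96.0, 1818, 97.5 and 97.6 CPM. Slfn4, a schlafen protein of activated myeloid cells, was at 66.9, 211, 3039.7, 239 and 284 CPM. Hp, haptoglobin, was at 69.8, 202, 1351, 175 and 141 CPM. Replicate 3 was above all others by a wide margin in these 3, while S100a9, an alarmin subunit abundant in neutrophils, was at 178, 917, 628, 558 and 537 CPM and did not single it out. The fitted list median turned from 0.97 to -0.17 without replicate 3.

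The neutrophil list summed to 669, 2489, 5141, 1626 and 1509.9 CPM, 3.28-fold above the control mean in replicate 3, and replicate 1 was the lowest library. Of 14 tested members 4 were more than 4-fold higher in replicate 3 and 1 lower. Cxcr2, the receptor that guides neutrophils to CXC chemokines, was at 24.7, 139.8, 494, 101 and 109 CPM. Mmp9, a gelatinase of neutrophil granules, was at 47.7, 177, 726, 107 and 121 CPM. Ly6g, a surface marker of neutrophils, was at 2.01, 3.57, 51.9, 2.24 and 2.88 CPM. Retnlg, a resistin-like gene that circulating neutrophils express, went the other way, at 19.8, 52.8, 5.79, 44.4 and 35.8 CPM. The list's fitted median was 1.01 with replicate 3 and 0.08 without it.

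Genes of dendritic cells were split. Ccr7, the chemokine receptor that mature dendritic cells use to reach lymph nodes, was at 60.3, 65.6, 2021, 112 and 147 CPM. Ccl22, a chemokine of mature dendritic cells, was at 48.1, 55.5, 1787, 80.8 and 104 CPM. Replicate 3 was 15.6-fold and 19.4-fold above the control mean for these, whereas replicates 1 and 2 lay below both controls. Flt3, a receptor needed for dendritic cell development, was at 13.9, 23.9, 164, 25.7 and 23.996 CPM, and Irf8, a transcription factor of the same lineage, at 72.7, 70.5, 441, 74.2 and 72.7 CPM. Clec9a, a receptor of cross-presenting dendritic cells, was at 38.5, 32.0, 8.26, 40.3 and 52.1 CPM, and Cd209a at 6.62, 10.4, 0.141, 22.8 and 8.37 CPM, both lowest in replicate 3. In all, 5 of 11 members were past 4-fold higher and 3 past 4-fold lower. The fitted list median turned from 0.62 to -0.47 without replicate 3.

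Signalling genes were among the 10 that most set replicate 3 apart upward. Ccl5 (chr11:83525778-83530518), a chemokine that attracts T cells and monocytes, was at 7.37, 6.36, 1576, 10.2 and 12.5 CPM, 139-fold above the control mean. Il2ra, the interleukin 2 receptor alpha chain, was at 1.01, 1.92, 270.5, 3.94 and 2.70 CPM. Lymphocyte markers stayed at low levels in all 5 libraries. Cd3e, a chain of the T cell receptor complex, was at 1.01, 0.958, 1.98, 1.70 and 1.40 CPM, highest in replicate 3. Cd4 was at 1.93, 2.09, 1.48, 4.03 and 5.49 CPM, lowest in replicate 3. Ikbke, a kinase of the interferon and NF-kappaB pathways, was at 11.7, 33.5, 1062, 32.6 and 36.3 CPM. Ramp3, which modifies the calcitonin receptor-like receptor, was at 9.64, 13.7, 621, 14.7 and 17.3 CPM. Ccl5, Il2ra, Ikbke and Ramp3 were each high in replicate 3 alone. A chemokine of stroma and one of resident macrophages were low there: Cxcl12 was at 358, 223, 11.2, 346 and 249 CPM and Ccl6 at 824, 786, 23.1, 799 and 450.1 CPM. Of 20 tested members of the chemokine and cytokine list, 4 were past 4-fold higher and 2 past 4-fold lower, and its fitted median turned from 0.26 to -0.48 without replicate 3.

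**Figure D4:**
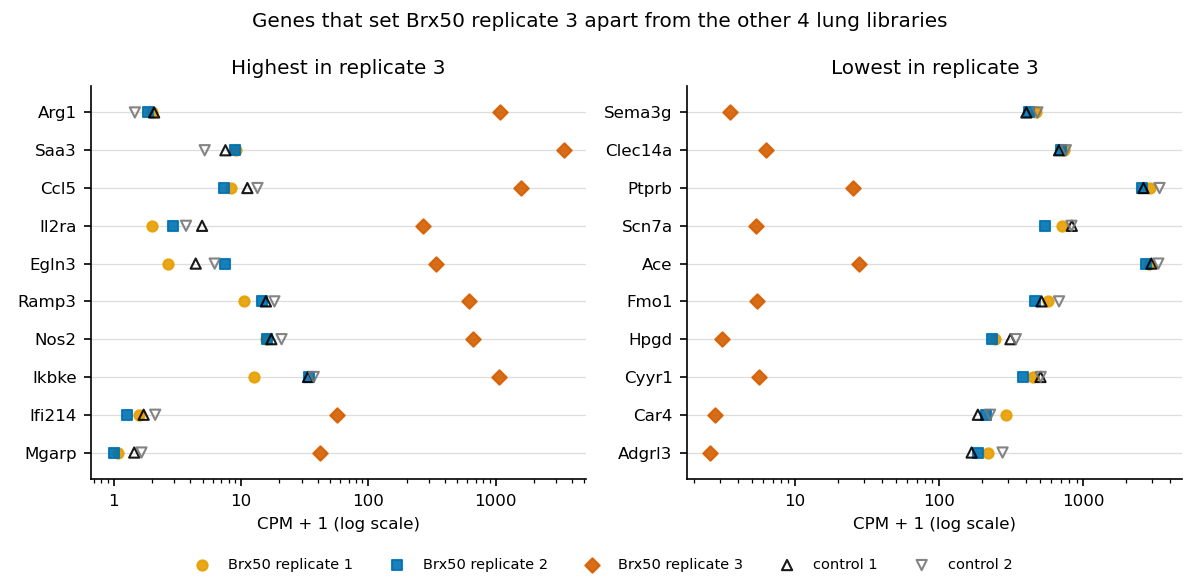
CPM + 1 (log axis) in the 5 lung libraries of the 10 genes with the largest ratio of replicate 3 over the highest other library (one panel) and the 10 with the largest ratio of the lowest other library over replicate 3 (the other panel). The genes were chosen for this pattern; Arg1 reaches 1085 CPM in replicate 3 against at most 1.08 CPM elsewhere, and Sema3g falls to 2.54 CPM against at least 403 CPM elsewhere.

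Genes of hypoxia and glycolysis were higher in replicate 3. Of 17 members, 13 were more than 4-fold above the control mean, and the list's median log2 ratio was 0.01 in replicate 1, 0.06 in replicate 2 and 2.92 in replicate 3, beside -0.21 for all genes in the last. The summed level was 2168, 2287, 14413, 2299 and 2100.1 CPM. Egln3, an oxygen-sensing prolyl hydroxylase that is itself a target of hypoxia-inducible factors, was at 1.68, 6.53, 339.6, 3.405 and 5.21 CPM, 78.9-fold above the control mean. Bnip3, a mitophagy receptor induced by hypoxia, was at 14.7, 12.9, 244, 11.8 and 11.998 CPM. Pgk1, phosphoglycerate kinase, was at 19.4, 19.7, 455, 26.9 and 21.4 CPM. These 3 had the largest folds of the list, and replicates 1 and 2 were near the controls in all of them. The enzymes Aldoa, at 518, 437, 3692, 441 and 355 CPM, and Ldha, at 192, 199.6, 1317, 182 and 154 CPM, showed the same order, as did the glucose transporter Slc2a1, at 47.8, 85.9, 639, 84.2 and 75.0 CPM. Glycolytic genes have processed pseudogenes that can share their reads, so these levels are uncertain to that extent. Vegfa, the main endothelial growth factor and a textbook hypoxia target, was at 529.6, 479, 529.8, 463 and 458 CPM and so was not set apart in replicate 3. Adm and Car9, 2 other targets, were 1.66-fold and 1.96-fold above the control mean. The list's fitted median was 1.88 with replicate 3 and -0.05 without it.

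Most interferon-stimulated genes of the list were higher in replicate 3 and lower in the other exposed libraries. Of 19 members 14 were more than 4-fold above the control mean in replicate 3. In replicates 1 and 2, 16 of 19 lay below both controls, against 19.6% of all genes tested, and 0 lay above both, against 17%. Median log2 ratios of the list were -0.66, -0.56 and 2.71 in replicates 1, 2 and 3, and the summed level was 575, 639, 7040.3, 864 and 1042 CPM. Ifit2, an antiviral protein that binds RNA, was at 20.3, 17.7, 517, 19.0 and 21.6 CPM. Mx1, a dynamin-like antiviral GTPase, was at 7.62, 9.84, 233, 11.8 and 11.9 CPM. Rsad2, which encodes the antiviral enzyme viperin, was at 20.5, 33.3, 714, 42.2 and 55.3 CPM, and Irf7, the factor that amplifies type I interferon, at 71.6, 88.4, 1404, 119.7 and 139.8 CPM. Replicate 3 was highest for all 4, and replicates 1 and 2 were below both controls for Mx1, Rsad2 and Irf7. Cxcl9, a chemokine that interferon gamma induces, was at 1.01, 0.261, 0.423, 1.16 and 2.23 CPM and was not high in replicate 3. Cxcl10, a related chemokine, was at 11.4, 20.6, 48.2, 30.1 and 36.9 CPM, in the same order as the antiviral genes but only 1.44-fold above the control mean in replicate 3. Iigp1, an interferon-inducible GTPase outside the list, was at 47.2, 46.0, 8.47, 84.2 and 112 CPM. Replicate 3 was its lowest library, 11.6-fold below the control mean. The list's fitted median turned from 1.58 to -0.69 without replicate 3.

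Class I antigen presentation genes were also higher in replicate 3, with a median log2 ratio of 1.36 and 4 of 12 members more than 4-fold higher. B2m, the class I light chain, was at 852, 969, 2846, 1182 and 1213 CPM, and Tap1, a subunit of the peptide transporter, at 16.9, 16.5, 97.9, 18.2 and 18.3 CPM. Values of H2-Q7, at 8.13, 9.32, 61.6, 8.96 and 10.2 CPM, are uncertain because near-identical class I genes share its reads. The fitted median of the class I list was 0.91 with replicate 3 and -0.10 without it. Class II genes did not show this, with median log2 ratios of -0.04, -0.17 and -0.45 and 0 of 8 members past 4-fold. Their fitted median was -0.04 with replicate 3 and -0.06 without it.

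**Figure D5:**
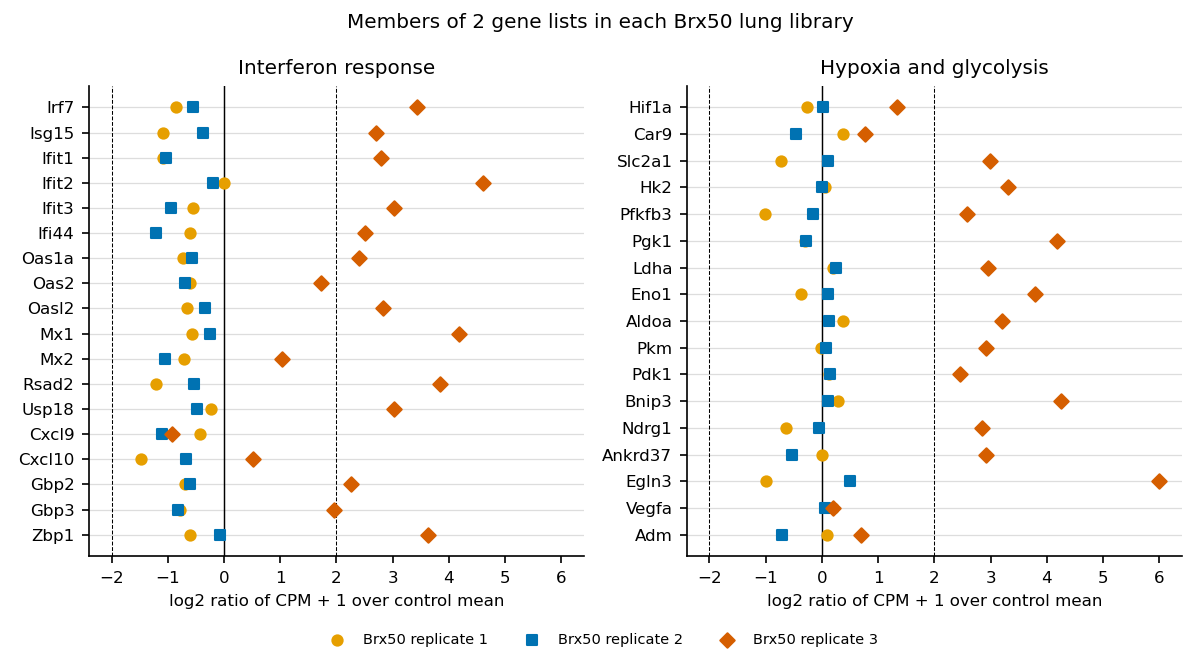
Log2 ratio of CPM + 1 over the control mean for 18 of the 19 members of the interferon response list and all 17 of the hypoxia and glycolysis list, 1 marker per Brx50 library, with dashed lines at 4-fold. In replicate 3, 13 of the 18 interferon genes drawn and 13 of the 17 hypoxia genes lie beyond the upper line, while the list medians of replicates 1 and 2 are -0.66 and -0.56 for interferon and 0.01 and 0.06 for hypoxia.

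Since most members of both lists were high in replicate 3, their promoters were searched for the core letters of the elements through which these pathways are known to act. RefSeq promoters on GRCm38.p6 were used, taking the 250 bases before each start site on both strands. The letters searched were ACGTG, which reads CACGT on the other strand, for the hypoxia response element, and GAAANNGAAA, which reads TTTCNNTTTC on the other strand, for the interferon-stimulated response element. The hypoxia core was found in 13 of 16 listed genes with an entry (81.2%), against 4998 of 27025 genes in the table (18.5%). The interferon element was found in 8 of 13 listed genes with an entry (61.5%), against 936 of 27025 (3.46%). Across lists, the hypoxia core was in 1 of 13 interferon genes, and the interferon element in 1 of 16 hypoxia genes. Both lists consist of textbook targets of these factors, so the match describes the lists and says nothing of what acted in this library. Of the 13 hypoxia genes with the core, 10 were past 4-fold in replicate 3, and of the 3 without it 2 were. Of the 8 interferon genes with the element 6 were past 4-fold, and of the 5 without it 4 were. The following stretches, from the motif-bearing members with the largest difference in replicate 3, show where the letters sit, with the matched letters in capitals and each written 5′ to 3′ along the gene.
Egln3, chr12:54204059-54204124, minus strand: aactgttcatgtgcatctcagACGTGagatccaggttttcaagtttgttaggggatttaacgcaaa
Bnip3, chr7:138909569-138909654, minus strand: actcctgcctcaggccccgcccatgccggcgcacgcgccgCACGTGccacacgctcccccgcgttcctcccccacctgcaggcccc
Pgk1, chrX:106186910-106187013, plus strand: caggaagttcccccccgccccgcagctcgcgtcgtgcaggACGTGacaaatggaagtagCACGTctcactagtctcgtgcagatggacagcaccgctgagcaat
Rsad2, chr12:26456523-26456612, minus strand: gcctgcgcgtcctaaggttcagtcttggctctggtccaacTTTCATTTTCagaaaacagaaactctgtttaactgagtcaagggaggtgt
Ifit3, chr19:34583333-34583456, plus strand: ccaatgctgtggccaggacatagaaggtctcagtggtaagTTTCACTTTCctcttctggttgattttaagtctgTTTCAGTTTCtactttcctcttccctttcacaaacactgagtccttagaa
The Egln3 match starts 229 bases before its start site, and the palindrome of Bnip3 holds overlapping matches on both strands at 108 and 107 bases. Pgk1 has matches at 150 and 131 bases, Rsad2 at 120 bases, and Ifit3 at 156 and 122 bases. Ifit2, the interferon gene with the largest fold in replicate 3, has no match in the window searched.

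Without replicate 3, the remaining pair of Brx50 libraries was close to the controls. No gene of 15924 passed in edgeR (smallest adjusted p 0.347), with 929 genes (5.83%) at an unadjusted p under 0.05. DESeq2 called 19 genes (0.119%), 12 higher and 7 lower, and limma-voom called 0. Of the 16206 genes tested with all 5 libraries, 2757 were higher in both replicates than in both controls (17%), and 3175 were lower in both (19.6%). The genes named from these calls were chosen after their values were seen.

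Platelet genes were among those that DESeq2 called higher in replicates 1 and 2. Itga2b, the platelet integrin subunit that binds fibrinogen, was at 54.6, 33.6, 13.3, 15.6 and 14.7 CPM. Tubb1, the platelet beta tubulin, was at 24.1, 14.5, 4.73, 5.47 and 5.95 CPM, and Nrgn, which platelets and neurons express, at 58.0, 29.0, 3.18, 14.0 and 15.5 CPM. Replicates 1 and 2 were above both controls in all 3, and replicate 3 was not. Log2 fold changes without replicate 3 were 1.55, 1.76 and 1.56, with DESeq2 adjusted p of 9.29e-04, 0.00219 and 0.00967. Of the 8 tested genes of the megakaryocyte and platelet list, 7 were higher in replicates 1 and 2 than in both controls, against 17% of all genes. The summed list was at 224, 139, 55.2, 89.5 and 85.4 CPM. Genes of red cells were not higher with them, at a sum of 40.4, 57.5, 3.03, 68.4 and 73.8 CPM.

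DESeq2 also called higher in this pair 3 genes known from resident macrophages or joint and serous linings. Alox15, a lipoxygenase of resident macrophages, was at 23.1, 20.5, 1.27, 6.63 and 6.79 CPM. Prg4, the lubricating proteoglycan lubricin, was at 56.1, 41.4, 5.15, 15.6 and 18.9 CPM, and Cd5l, a secreted protein of tissue macrophages, at 13.7, 15.0, 0.212, 4.12 and 2.79 CPM. Replicate 3 lay below both controls for each, opposite to the other exposed libraries. Log2 fold changes without it were 1.71, 1.51 and 2.06 (DESeq2 adjusted p 4.93e-05, 7.98e-05 and 2.05e-04). Of 13 alveolar macrophage markers, 7 were above both controls in replicates 1 and 2, against 17% of all genes tested. The controls differed from each other, however, by a sum of 3498 against 1832 CPM. Serpinb2 and Ltf were also called higher by DESeq2 without replicate 3, at log2 fold changes of 1.55 and 1.52.

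Among the 7 genes that DESeq2 called lower in replicates 1 and 2 were 2 heat shock chaperones, named after their calls were seen and not from a gene list. Hsph1, a large heat shock protein, was at 64.5, 53.8, 116, 153 and 146 CPM, and Hsp90aa1, the inducible HSP90, at 173, 165, 256, 347 and 327 CPM. All 3 Brx50 libraries were below both controls, with replicate 3 between the pair and the controls. The log2 fold changes without replicate 3 were -1.33 and -0.98 (DESeq2 adjusted p 3.66e-06 and 7.92e-04), and with all 3 libraries -0.82 (SE 0.46) and -0.66 (SE 0.38), with an edgeR adjusted p of 0.997. Hhip, an inhibitor of hedgehog signalling made by lung fibroblasts and smooth muscle, was at 19.3, 27.2, 3.11, 62.8 and 53.9 CPM. Ifit1, an antiviral protein, was at 23.2, 24.03, 355, 42.2 and 58.7 CPM. DESeq2 called both, and Ccr7, lower in the pair, by -1.31, -1.08 and -1.03 on the log2 scale. Iigp1, given above, was also called lower (-1.06 on the log2 scale, DESeq2 adjusted p 0.00735). Replicate 3 was lowest of the 5 for Hhip and Iigp1 and by far the highest for Ifit1 and Ccr7.

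Replicates 1 and 2 also differed from each other. Replicate 1 had the lowest neutrophil sum of the 5 libraries, and its 37 genes more than 4-fold below the control mean included Cxcr2. Replicate 2 held squamous keratins that no other library of the 5 had at that level. Krt13 was at 0.503, 123, 0.706, 4.48 and 0.279 CPM, and Krt4 at 1.59, 152, 1.34, 3.05 and 0.279 CPM. Ciliated cell genes summed to 356, 611, 47.4, 318 and 362 CPM, highest in replicate 2.

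The Brx50 libraries were then set against lung stroma beside the other CTC lines, Brx07 (2 libraries), Brx42 (1) and Brx68 (1), with the controls in the fit only to share the spread. No gene of 17132 passed in edgeR (smallest adjusted p 0.404), with 2110 (12.3%) at an unadjusted p under 0.05. DESeq2 called 47 genes (0.274%), 7 higher and 40 lower beside Brx50. Limma-voom with quality weights called 1, Tg (adjusted p 0.00243). Tg, thyroglobulin, is made by the thyroid gland and is no lung gene. It was at 3.44, 5.31 and 28.4 CPM beside Brx50 and at 5.29 and 6.05 CPM in the controls. The Brx07 libraries had 3774 and 698 CPM, the Brx42 library 1731 CPM and the Brx68 library 2239 CPM. Brx50 replicates 1 and 2 were thus near the controls, replicate 3 was 5.02-fold above their mean, and every library of the other lines was far above all 5. The log2 fold change in edgeR was -7.31 (SE 1.15), and -8.93 (SE 0.96) without replicate 3. Il10 was also called lower by DESeq2 (log2 fold change -1.49, adjusted p 0.0351), at 6.87, 7.40 and 5.86 CPM beside Brx50 against 23.8, 27.5, 14.7 and 11.3 CPM beside Brx07, Brx07, Brx42 and Brx68. Il1rn, the interleukin 1 receptor antagonist, was called higher (3.15 on the log2 scale, adjusted p 0.0288 in DESeq2), at 102, 177 and 1188 CPM beside Brx50 against 42.4, 52.3, 77.7 and 72.8 CPM, with replicate 3 far above the rest. In edgeR its log2 fold change was 3.15 (SE 0.81) with replicate 3 and 1.20 (SE 0.30) without it, with adjusted p of 0.404 and 0.710, while that of Il10 was -1.49 (SE 0.34) and -1.43 (SE 0.39). The controls, at 168 and 132 CPM, were within the range of Brx50 replicates 1 and 2.

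To ask whether the Brx50 difference was the same in another organ, the change in lung was tested against that in brain, where 3 libraries beside Brx50 tumours and 2 controls were measured. This comparison shares the lung libraries, so it is no separate support for the lung values. No gene of 19234 passed in edgeR (smallest adjusted p 0.613), with 932 (4.85%) at an unadjusted p under 0.05. DESeq2 called 61 genes (0.317%), of which 60 had the lower change in lung. Such a call need not mean a fall in lung, since a rise in brain gives it too. Lgals3, a galectin called in this way, was at 517, 447 and 449 CPM in lung beside Brx50 and at 393 and 261 CPM in lung controls. In brain it was at 34.5, 45.5 and 45.8 CPM beside Brx50 and at 2.23 and 5.33 CPM in controls. Il12rb1, lower beside Brx50 in lung, was at 5.83, 3.41 and 3.17 CPM in brain beside Brx50 and at 0.159 and 0.400 CPM in brain controls (difference of changes -6.60 on the log2 scale, SE 1.13, adjusted p 2.56e-05 in DESeq2 and 0.613 in edgeR). Its direction was thus opposite in the 2 organs. A level of 3 counts corresponds to 0.478 and 0.400 CPM in the brain controls, so their values rest on 3 counts or fewer. Without lung replicate 3, edgeR called 1 gene, Pomc, the precursor of pituitary hormones. Pomc was at 169, 163 and 122 CPM in brain beside Brx50, at 2.39 and 2.67 CPM in brain controls and at 0.706 CPM or less in the 5 lung libraries.

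Against the whole series, replicate 3 had the highest value of all 30 libraries for Arg1, Saa3, Nos2, Egln3, Ccl5, Ccr7 and Slfn4. The highest of the other 29 was 59.8 CPM for Arg1, in a lung library beside Brx07, and 398 CPM for Saa3, in a bone library beside Brx68. For Ccr7 the highest other value was 147 CPM, in lung control 2. The library of Brx07 with that Arg1 level also had 53.1 CPM of Egln3, 393 CPM of Saa3, 331 CPM of Cdh5 and 62.4 CPM of Sftpc. Its Cdh5 and Sftpc levels were below those of both lung controls, and its Arg1, Saa3 and Egln3 levels above them. The libraries that carry the same code as replicate 3 did not show its Arg1 level, with 2.82 CPM in bone and 16.6 CPM in brain. Slfn4 was at 1249 CPM in that bone library, and at 571, 852 and 912 CPM in the 3 bone controls, so that bone libraries without tumours also held this transcript at a higher level than the other lung libraries.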

How the data were processed

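RNA sequencing counts per gene of 30 mouse stroma libraries were deposited by the authors as one table of raw counts. Per the submitters' processing notes, reads were handled with STAR 2.5.2b and HTSeq, and builds hg19, GRCh37, mm10 and GRCm38.p5 are named. How human reads were told apart from mouse reads, and which annotation and strand setting were used, the sources used here do not give. Symbols and coordinates come from GENCODE on GRCm38, which matched 42462 of 43346 IDs. The 884 others held 0.132% of counts. The test on counts was that of edgeR 4.0.16, run in R 4.3.3 (TMM scaling, filterByExpr, robust quasi-likelihood F-test, two-sided, Benjamini-Hochberg adjustment, threshold 0.05), with 3 Brx50 against 2 control libraries, no covariates. DESeq2 1.42.0 and limma 3.58.1 (voom) were alternatives, as were other scalings, no low-count filter and leaving out each library. Fits with replicate 3 left out in DESeq2 or limma-voom, and the other settings for its 4-fold counts, were added after seeing the data. CPM use unscaled library totals, and ratios use log2(CPM + 1). No pair of libraries agreed within sampling noise. The edgeR fit was also run on simulated data. No simulated library was set apart as replicate 3 is, so that run cannot show how such a library affects the calls.

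The comparison, gene lists and tests were chosen with earlier results of these data known. Named genes are the 12 per direction with the smallest p among genes of at least 10 CPM without overlap between groups, the 2 most abundant members and the 2 of smallest p per list, and the 10 per direction that most set replicate 3 apart. Further list members, and genes called by DESeq2, were chosen after their values were seen. Promoters come from RefSeq (GRCm38.p6). One gene is counted in its list but not reported here.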

Additional observations from a re-analysis of the deposited data

How the results depend on the processing

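For the comparison of Brx50 and control lung, edgeR called 0 genes under each scaling, filter, dispersion, threshold and sample choice tried (0 to 0 when any one library was left out), while DESeq2 called 3 genes with all libraries and 19 without replicate 3. For Brx50 against other lines, DESeq2 called 47 genes and limma-voom with quality weights 1, against 0 in edgeR, also with any one library left out (0 to 0). For lung against brain, DESeq2 called 61 genes and limma-voom with quality weights 203; leaving out one library gave 0 to 1, the 1 being without Brx50 lung replicate 3. The causes of these differences were not tested.

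Genes more than 4-fold higher in replicate 3 numbered 218 in place of 432 with 10 CPM added before the ratio, and those lower 537 in place of 1456. A larger addition shrinks ratios of low genes by construction. With TMM-scaled totals they were 558 and 1246, a share of higher genes that differs from the unscaled 432 and 1456 because replicate 3 had a TMM factor of 0.882.

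Of 360 values for the 24 genes of smallest p under 15 alternatives, 357 kept their direction and their side of the threshold, 3 passed it (1 in DESeq2 and 2 in DESeq2 without replicate 3) and 0 reversed. These genes were chosen from the same libraries because their groups do not overlap. That choice favours an unchanged direction, so the counts are no separate support for the genes. Of 705 fitted list medians, 89 moved by more than the SD of the medians of the 3 Brx50 libraries, 13 of them in edgeR without replicate 3. Replicate 3 is part of that SD, which was 2.93 for the pan-endothelial list. The change of that list from -0.52 to 0.03 without replicate 3 was thus not counted as moved.

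No paired analysis was possible because the labels give replicate numbers to the control libraries only. Values under 0.279 CPM rest on fewer than 3 counts in the shallowest library. Replicate 3 alone has no test.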
